A study of Mus musculus with 8 samples.

Results

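Potassium channel genes were taken as the protein-coding genes of the RefSeq gene table for GRCm38.p6 whose symbols start with Kcn. The rule used names and no measured value, and it gave 94 of 21887 protein-coding genes on chromosomes 1 to 19, X and Y. They comprised 17 voltage-gated alpha subunits of the Kcna to Kcnd families, 10 modifier alpha subunits, 8 members of the EAG, ERG and ELK families, 5 KCNQ genes, 15 inward rectifiers, 14 leak channels with 2 pore domains, 8 channels gated by calcium, sodium or pH, and 17 auxiliary subunits. The genes were long, with a median of 32.7 kb against 17.2 kb for all protein-coding genes.

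The assay was ATAC-seq, which reads accessible DNA as the places where the transposase Tn5 can insert adapters, on primary cortical neurons cultured from E16.5 mouse embryos. Neurons with the genotype BAF53bCre Brg1F/F (cKO) were depolarised with 50 mM KCl for 1 h (cKO KCl) or left without KCl (cKO basal). WT neurons were handled in the same 2 ways (WT KCl and WT basal), and each condition had 2 libraries of 50000 cells. Brg1, encoded by Smarca4, drives the BAF complex, which moves nucleosomes using ATP, and BAF53b is a subunit of that complex found in neurons, so cells of the culture that are not neurons would keep Brg1. TTX at 1 µM and APV at 100 µM, which block sodium channels and NMDA receptors, were given on day 5 in vitro and KCl on day 6, and the labels do not state whether basal cultures received the blockers.

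The authors deposited 1 peak list per condition, so each value below stands for 1 list, has no replicate error and allows no test between conditions. The lists held 25690 peaks for cKO KCl, 20484 for cKO basal, 20229 for WT KCl and 34061 for WT basal. The most common background among the peaks of a list, taken as a measure of depth, was 8.36, 9.47, 8.23 and 9.3 fragments in that order. By this measure the longest list was not the deepest. The median summit rested on 30 to 33 fragments, and the shallowest called summits on 20 to 22. Presence in a list is therefore a threshold call. Smarca4 had a peak at a gene end in all 4 lists, and a peak there does not check the deletion.

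Potassium channels let potassium leave the cell, which sets the resting potential, ends action potentials and limits repetitive firing. Raising external potassium, as KCl does, shifts the potassium equilibrium and depolarises neurons. A nucleosome-free peak at a promoter marks a stretch of DNA that Tn5 could reach and does not measure how much RNA a gene makes. Vertebrate promoters fall into a CpG-rich kind, often open in many cell types, and a CpG-poor kind with more restricted use.

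The 6 promoter windows printed here show the range found among these genes, and are referred to again beside the results. Each runs from 250 bases before to 50 bases after a RefSeq start (GRCm38.p6), is written 5′ to 3′ on the gene's strand, and has its CpG dinucleotides in capitals. Kcnt2, encoding a sodium-activated channel, had a peak within 1 kb of its start in all 4 lists and 12 CpG (chr1:140245468-140245767, plus strand). Kcnh1, encoding the founding EAG channel, had 27 CpG (chr1:192190527-192190826, plus strand) and a start peak in all 4 lists that the annotated gene ends do not capture. Kcnd2, encoding a channel of the dendritic A-type current, had 26 CpG (chr6:21215096-21215395, plus strand) and a start peak in every list but WT KCl. Kcnj3, encoding a G protein-gated inward rectifier, had 10 CpG (chr2:55435720-55436019, plus strand) and a start peak in every list but WT basal. The upstream start of Kcnj6, encoding a partner of Kcnj3 in such channels, had 30 CpG (chr16:94997647-94997946, minus strand) and a start peak in cKO KCl and WT basal. Kcna5, encoding a delayed rectifier best known from heart and vessels, had 4 CpG (chr6:126535506-126535805, minus strand) and a start peak in those 2 lists as well.
Kcnt2: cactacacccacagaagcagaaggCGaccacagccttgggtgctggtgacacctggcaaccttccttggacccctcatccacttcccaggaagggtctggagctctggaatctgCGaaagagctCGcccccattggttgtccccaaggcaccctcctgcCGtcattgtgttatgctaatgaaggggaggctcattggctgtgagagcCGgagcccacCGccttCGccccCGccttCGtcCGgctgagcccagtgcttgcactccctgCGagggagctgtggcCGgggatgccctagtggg
Kcnh1: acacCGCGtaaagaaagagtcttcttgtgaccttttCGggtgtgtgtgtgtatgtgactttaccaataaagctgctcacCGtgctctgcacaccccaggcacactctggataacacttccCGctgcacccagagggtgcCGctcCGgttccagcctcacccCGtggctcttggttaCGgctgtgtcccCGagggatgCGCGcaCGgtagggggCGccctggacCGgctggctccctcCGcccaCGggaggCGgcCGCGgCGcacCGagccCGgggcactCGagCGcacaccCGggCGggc
Kcnd2: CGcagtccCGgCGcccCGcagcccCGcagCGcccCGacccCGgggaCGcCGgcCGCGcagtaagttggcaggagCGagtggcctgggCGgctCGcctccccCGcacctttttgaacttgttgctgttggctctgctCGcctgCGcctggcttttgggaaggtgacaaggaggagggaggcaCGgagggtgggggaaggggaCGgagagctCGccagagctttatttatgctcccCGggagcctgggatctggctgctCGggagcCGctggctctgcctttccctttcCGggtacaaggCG
Kcnj3: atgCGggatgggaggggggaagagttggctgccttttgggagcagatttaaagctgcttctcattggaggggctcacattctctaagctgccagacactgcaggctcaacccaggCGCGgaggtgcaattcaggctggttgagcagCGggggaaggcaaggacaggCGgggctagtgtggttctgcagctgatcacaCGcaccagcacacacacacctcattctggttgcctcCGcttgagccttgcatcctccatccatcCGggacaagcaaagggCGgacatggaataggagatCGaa
Kcnj6: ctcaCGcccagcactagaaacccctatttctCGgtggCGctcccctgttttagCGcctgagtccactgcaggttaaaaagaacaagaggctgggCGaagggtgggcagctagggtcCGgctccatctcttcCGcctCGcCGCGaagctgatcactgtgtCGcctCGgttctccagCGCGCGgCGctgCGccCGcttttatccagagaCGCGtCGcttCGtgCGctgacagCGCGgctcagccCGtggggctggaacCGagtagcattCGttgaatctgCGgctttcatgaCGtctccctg
Kcna5: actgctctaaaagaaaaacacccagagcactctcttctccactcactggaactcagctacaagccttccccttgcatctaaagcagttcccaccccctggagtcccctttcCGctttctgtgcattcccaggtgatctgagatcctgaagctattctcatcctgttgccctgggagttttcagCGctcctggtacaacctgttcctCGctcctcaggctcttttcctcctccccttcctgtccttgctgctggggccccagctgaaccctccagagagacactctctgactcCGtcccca

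A gene-end peak is one whose edge lies at most 1 kb from the lower or upper annotated end of the gene; both ends count because the gene table gives no strand. Of the 94 genes, 44 had one in cKO KCl (46.8%, 95% exact binomial interval 36.4 to 57.4%), 35 in cKO basal (37.2%, 27.5 to 47.8%), 31 in WT KCl (33%, 23.6 to 43.4%) and 50 in WT basal (53.2%, 42.6 to 63.6%). Among all protein-coding genes the shares were 45.2% in cKO KCl, 38.8% in cKO basal, 39.8% in WT KCl and 46.5% in WT basal, so each share of the channel genes had the value of all genes within its interval. All intervals here cover counting error alone, and in these bulk samples fewer cells of a type cannot be told apart from less open chromatin per cell. Every list was then held to its 20229 peaks of lowest q-value. An end was called for 39, 35, 31 and 41 channel genes in cKO KCl, cKO basal, WT KCl and WT basal. As shares these were 41.5, 37.2, 33 and 43.6%, against 42, 38.7, 39.8 and 39.9% of all genes in the same order. The exact interval of each channel share again held the value of all genes.

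Of the 94 genes, 21 had a gene-end peak in all 4 lists (22.3%, against 29.0% of all genes), 43 in 1 to 3 lists, and 30 in none (31.9%, against 43.1%). In 19 of the 21 one merged region held peaks of all 4 lists, and in Kcnk12 and Kcnn2 it did not. The strongest gene-end peaks of the channel genes were of moderate height, with a median fold over local background per gene of 3.02, 2.86, 2.95 and 2.93 in cKO KCl, cKO basal, WT KCl and WT basal. For all genes with a gene-end peak the medians were 3.72, 3.34, 3.47 and 3.5. These folds are the authors' values per peak and are used here to describe peaks within a list.

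The pore-forming voltage-gated subunits, which open on depolarisation, showed the widest spread between lists. Of the 17, 7 were called at a gene end in cKO KCl, 8 in cKO basal, 4 in WT KCl and 12 in WT basal. As shares these were 41.2, 47.1, 23.5 and 70.6%, against 45.2, 38.8, 39.8 and 46.5% of all genes. The intervals were 6.81 to 49.9% in WT KCl and 44.0 to 89.7% in WT basal. In this class and those below, every exact interval of a class share held the value of all genes. Kcna3 and Kcna4 were the 2 present in every list. Kcna4, encoding an inactivating channel of the axonal A-type current, had its gene-end peak at fold 4.0 in cKO KCl, 3.09 in cKO basal, 2.57 in WT KCl and 2.91 in WT basal. Kcnb2, encoding a delayed rectifier, had one of the strongest gene-end peaks of the class, at fold 3.71 in cKO KCl, 4.22 in cKO basal and 4.74 in WT basal, and no gene-end peak in WT KCl, where its 2 peaks within 50 kb lay elsewhere. Kcnd2 followed the same pattern with folds of 2.89, 2.86 and 3.26 in those 3 lists. Kcnc1, encoding a fast channel of rapidly firing neurons, did so with folds of 2.65, 2.30 and 2.57.

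Other voltage-gated genes differed in further ways. Kcna1, encoding the axonal channel mutated in episodic ataxia, had gene-end peaks in the 2 WT lists, at a highest fold of 2.85 in WT KCl and 3.23 in WT basal, and in neither cKO list. Kcna6, from the same cluster on chromosome 6, had one in cKO basal (fold 3.33) and WT KCl (3.13). Kcna5, the third gene of that cluster, had one in cKO KCl (highest fold 2.65) and WT basal (3.36). Only the edges of peaks reached the CpG-poor window shown above, from 126535308 to 126535525 in cKO KCl (fold 2.50) and from 126535204 to 126535507 in WT basal. Kcnc2 had a gene-end peak in WT basal (3.69), but a second site less than 1 kb from other RefSeq starts of the gene was present in cKO KCl, WT KCl and WT basal. Kcna7 and Kcnd1 had none in any list.

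The modifier subunits do not form channels on their own and join other voltage-gated subunits. Of the 10, 7 were called at a gene end in cKO KCl, 3 in cKO basal, 4 in WT KCl and 7 in WT basal. The shares were 70, 30, 40 and 70%, against 45.2, 38.8, 39.8 and 46.5% of all genes. Kcnv1 had a gene-end peak in all 4 lists. Its fold was 5.13 in cKO KCl, 3.25 in cKO basal, 4.33 in WT KCl and 3.59 in WT basal. The summits held 47, 33, 39 and 36 fragments, with counting intervals that all overlap. Kcns2 was the other gene present in all 4, at folds of 3.03, 2.66, 2.59 and 2.33. Kcnf1, Kcng3 and Kcns3 had gene-end peaks in cKO KCl and WT basal and in neither of the other 2 lists. For Kcng3, whose promoter window had 49 CpG, the highest folds were 2.64 in cKO KCl and 3.25 in WT basal.

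Among the EAG, ERG and ELK genes, whose channels open at negative potentials and shape excitability, 4 of 8 were called at a gene end in cKO KCl, 4 in cKO basal, 3 in WT KCl and 6 in WT basal. Their shares were 50, 50, 37.5 and 75%, against 45.2, 38.8, 39.8 and 46.5% of all genes. Kcnh5 had folds of 3.87, 3.81, 3.76 and 4.26 in cKO KCl, cKO basal, WT KCl and WT basal. Kcnh8 had folds of 2.78, 3.25, 2.69 and 3.59, from summits of 25, 33, 24 and 36 fragments whose counting intervals overlap. The Kcnh6 call does not describe its promoter. Its peak (fold 5.32 in cKO KCl, 4.39 in cKO basal and 5.12 in WT basal) also lies at an end of Dcaf7, and WT KCl has a peak of fold 4.49 in the same region that falls just past 1 kb. In neurons, KCNQ channels carry the M-current, which muscarinic receptors suppress. Of the 5 KCNQ genes, 2, 2, 3 and 2 were called at a gene end in cKO KCl, cKO basal, WT KCl and WT basal. That is 40, 40, 60 and 40%, against 45.2, 38.8, 39.8 and 46.5% of all genes. Kcnq1 was called in WT KCl alone, at fold 2.77. Kcnq3 had gene-end folds of 4.41, 3.68, 4.0 and 4.28, and Kcnq5 of 4.86, 3.35, 3.67 and 3.75, in cKO KCl, cKO basal, WT KCl and WT basal.

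Inward rectifiers pass current near the resting potential. They had gene-end peaks in 5, 3, 4 and 4 of 15 genes in cKO KCl, cKO basal, WT KCl and WT basal. That is 33.3, 20, 26.7 and 26.7%, against 45.2, 38.8, 39.8 and 46.5% of all genes. No gene-end peak in any list was found for 9 of the 15, and for 43.1% of all genes. Kcnj8, encoding a pore subunit of ATP-sensitive channels, had folds of 4.81, 3.34, 3.03 and 3.01, and Kcnj2, encoding a strong rectifier, of 4.38, 2.48, 3.25 and 3.5. The summits held 44, 34, 27 and 30 fragments at Kcnj8 and 40, 25, 29 and 35 at Kcnj2, and within each gene the counting intervals overlap. Kcnj10, known as the main channel of astrocytes, had folds of 3.00, 3.70, 2.91 and 2.84. Kcnj3 stood out among genes without a gene-end peak. A region from 55436175 to 55436657 on chromosome 2, just past the promoter start shown above, had fold 3.42 in cKO KCl, 3.06 in cKO basal and 3.25 in WT KCl, and a second from 55437136 to 55437658 had 3.10, 2.39 and 3.25, while WT basal, the longest list, had no peak within 50 kb of the gene.

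Leak channels with 2 pore domains stay open at rest. They had gene-end peaks in 5, 3, 4 and 5 of 14 genes in cKO KCl, cKO basal, WT KCl and WT basal. That is 35.7, 21.4, 28.6 and 35.7%, against 45.2, 38.8, 39.8 and 46.5% of all genes. Kcnk12, encoding a subunit that is silent when expressed alone, was called in all 4 lists, but its promoter end was called in cKO KCl (3.48), cKO basal (2.63) and WT basal (3.22), and the opposite end in cKO KCl (3.03), cKO basal (2.74) and WT KCl (3.06). Kcnk9, encoding an acid-sensitive leak channel, had folds of 2.39 in cKO basal, 2.80 in WT KCl and 2.65 in WT basal. Kcnk5 was the one channel gene called at a gene end in the 2 KCl lists and in neither basal list, at fold 2.83 in cKO KCl and 2.66 in WT KCl, over 32 and 25 fragments. It is 1.06% of the 94, against 1.3% of all genes. The opposite pattern, a gene-end peak in the 2 basal lists and in neither KCl list, held 6 channel genes (6.38%, against 1.27% of all genes), Kcnd3 and Kcnk18 among them.

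Calcium- and sodium-gated channels make the afterhyperpolarisation that follows spikes. They were the class with the most even calls, with gene-end peaks in 5, 5, 5 and 6 of 8 genes in cKO KCl, cKO basal, WT KCl and WT basal. The class shares were 62.5, 62.5, 62.5 and 75%, against 45.2, 38.8, 39.8 and 46.5% of all genes. Kcnt2 had folds of 4.49, 3.34, 4.44 and 4.47 in the same order. Kcnn1 and Kcnn3, encoding SK channels, had folds of 3.86, 2.93, 2.67 and 3.37 and of 3.38, 3.08, 3.54 and 2.83. Kcnma1, encoding the BK channel, had 2.84, 2.77, 2.50 and 2.88. Kcnn2 had 5.05 in cKO KCl, 4.14 in WT KCl and 4.66 in WT basal, whereas cKO basal lacked a peak at that site and had one of fold 2.39 close by. Kcnu1, the sperm channel, and Kcnn4, best known from blood cells and epithelia, had none.

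Auxiliary subunits tune the pores they bind. They had gene-end peaks in 9, 7, 4 and 8 of 17 genes in cKO KCl, cKO basal, WT KCl and WT basal. That is 52.9, 41.2, 23.5 and 47.1%, against 45.2, 38.8, 39.8 and 46.5% of all genes. Kcnmb4, the neuronal partner of the BK channel, had a promoter window with 48 CpG and folds of 3.39, 3.27, 2.6 and 4.20. Kcnip3, which binds Kcnd channels and calcium, had highest folds of 2.68 in cKO KCl, 2.86 in cKO basal and 2.86 in WT basal, and no gene-end peak in WT KCl. The end peak of Kcnab2 (3.84, 2.69, 2.95 and 3.35) also lay at an end of Nphp4, so it cannot be given to one of the genes. Kcnab1 had a peak at its upstream start in cKO KCl alone of the 4 lists, at fold 3.53. Another of its RefSeq starts had a peak within 1 kb in cKO KCl, cKO basal and WT basal.

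RefSeq promoter starts were available for 69 of the 94 genes, with 94 windows in all, and they change the picture for some genes. A peak lay within 1 kb of at least 1 start in 34 genes in cKO KCl (49.3%), 32 in cKO basal (46.4%), 28 in WT KCl (40.6%) and 39 in WT basal (56.5%), against 47.6, 41.1, 42.1 and 48.3% of 17492 genes with an entry. By this count 17 channel genes had a start peak in all 4 lists (24.6%, against 31.5% of genes with an entry) and 19 in none (27.5%, against 41.9%). Of 24 genes with an entry and no gene-end peak, 9 had a start peak in at least 1 list, and for 8 of these the open start lies more than 1 kb inside the annotated gene. Among them, Kcnh1 and Kcnk10 had one in all 4 lists, and Kcnj3 and Kcnk2 in 3. At the Kcnh1 window shown above the fold was 2.75 in cKO KCl, 3.82 in cKO basal, 3.97 in WT KCl and 3.32 in WT basal. Kcnip4 and Kcnn1 had gene-end peaks in all 4 lists more than 2 kb from their RefSeq starts.

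Channel promoter windows called in all 4 lists had the highest median CpG content, and the medians of the other groups were close to each other. Windows with a start peak in all 4 lists had a median of 19 CpG (18 windows), those with one in 1 to 3 lists 8 (43 windows), and those with none 7 (33 windows). Over all genes the medians were 25, 17 and 3. CpG-rich windows were not always open: Kcnj4 and Kcnc1, with 41 CpG each, had a start peak in 1 and 3 lists, while Kcnh7, Kcnip2, Kcnk15 and Kcns1, with 18 to 24 CpG, had none in any list. No Kcn window held the full cAMP response element TGACGTCA, through which CREB acts on promoters of activity-induced genes, against 2.23% of 21263 windows of all genes. The AP-1 site TGANTCA was present in 4 of 94 windows (4.26%, against 6.99%), in Kcne3, Kcnip3, Kcnip4 and Kcnk2. The GC box GGGCGG was present in 47.9% (46.2% of all windows), CCAAT in 30.9% (38.2%), the TATA box TATAAA in 5.32% (12.6%), the E-box CACGTG in 7.45% (7.84%) and the palindromic NRF1 site in none (1.33%). Motifs were searched on both strands of the 300 bases, and a match is a match of letters. The motif shares carry no interval, some genes have several windows, and no difference from all windows was tested.

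**Figure D1:**
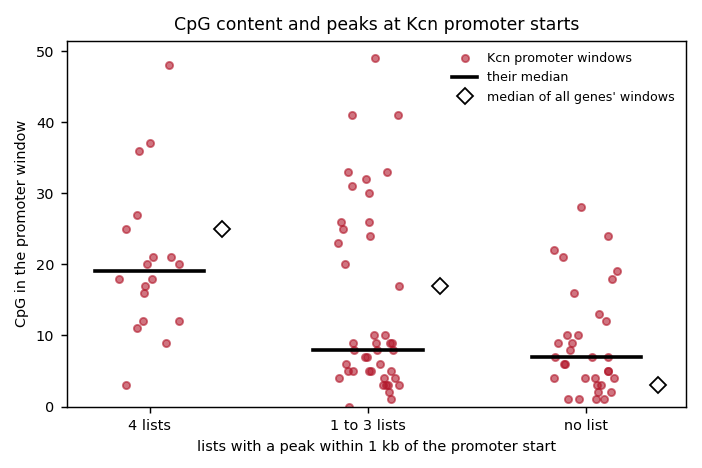
Each point is one of the 94 RefSeq promoter windows of Kcn genes (vertical axis, CpG per window), grouped by the number of lists with a peak within 1 kb of the start. Bars are medians (19, 8 and 7) and open diamonds the medians over the windows of all genes (25, 17 and 3).

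The first comparison asked how the loss of Brg1 changed open chromatin in unstimulated neurons. In cKO basal against WT basal, 2 channel genes were called at an end in cKO basal but not in WT basal, and 17 the reverse. Those are 2.13% (0.259 to 7.48%) and 18.1% (10.9 to 27.4%) of the 94, against 4.25% and 12% of all genes. The 2 were Kcna6 and Kcne4. The 17 included Kcnc2 (3.69 in WT basal), Kcna5 (3.36), Kcng3 (3.25), Kcna1 (3.23), Kcnf1 (2.91) and Kcnip1 (2.90). At Kcnip1, however, a peak lay within 1 kb of a RefSeq start in all 4 lists. With lists of equal length the counts were 5 in cKO basal and 11 in WT basal (5.32 and 11.7%, against 6.61 and 7.75% of all genes), so 6 more genes were without a peak in cKO basal than the reverse. At RefSeq starts they were 6 and 13 of 69 genes (8.70 and 18.8%, against 4.18 and 11.4% of genes with an entry).

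The second comparison asked the same of depolarised neurons. In cKO KCl against WT KCl, 20 channel genes were called at an end in cKO KCl but not in WT KCl, and 7 the reverse. They make 21.3% (13.5 to 30.9%) and 7.45% (3.05 to 14.7%), against 10.1% and 4.7% of all genes. Kcnb2 (3.71 in cKO KCl), Kcnab1 (3.53), Kcnd2 (2.89) and Kcnip3 (2.68) were among the 20, and Kcna1, Kcna6, Kcnk4 and Kcnk9 among the 7. The Kcnh6 call belongs to the 20 by position alone, as described above. With lists of equal length the counts were 16 and 8 (17.0 and 8.51%, against 8.06 and 5.83%). At RefSeq starts they were 11 and 5 of 69 (15.9 and 7.25%, against 9.74 and 4.21%).

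The third comparison asked what depolarisation did in WT neurons. In WT KCl against WT basal, 6 channel genes were called at an end in WT KCl but not in WT basal and 25 the reverse, or 6.38% (2.38 to 13.4%) and 26.6% (18 to 36.7%), against 4.72% and 11.5% of all genes. Thus 25 of the 50 channel genes with a gene-end peak in WT basal had none in WT KCl (50.0%, 35.5 to 64.5%), compared with 24.6% of all such genes. Kcnb2 (4.74 in WT basal), Kcnc2 (3.69), Kcna5 (3.36), Kcnd2 (3.26), Kcng3 (3.25), Kcnk18 (3.01), Kcne1 (2.97), Kcnf1 (2.91), Kcnip1 (2.90) and Kcnip3 (2.86) were among them. Kcnip1 and Kcnc2 nevertheless had a peak within 1 kb of a RefSeq start in WT KCl, at Kcnc2 the second site described above. Those called in WT KCl and not in WT basal included Kcnk4 (3.13) and Kcna6 (3.13); at Kcnk4 WT basal had a peak of fold 2.84 in the same region just past 1 kb from the gene end. With lists of equal length the counts were 7 in WT KCl and 17 in WT basal (7.45 and 18.1%), while all genes gave 7.2 and 7.26%. At RefSeq starts the counts were 6 and 17 of 69 genes (8.70 and 24.6%, against 4.49 and 10.7% of genes with an entry).

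The fourth comparison asked what depolarisation did without Brg1. In cKO KCl against cKO basal, 18 channel genes were called at an end in cKO KCl but not in cKO basal and 9 the reverse, or 19.1% (11.8 to 28.6%) and 9.57% (4.47 to 17.4%), against 11% and 4.59% of all genes. Kcnab1 (3.53 in cKO KCl), Kcng2 (3.19), Kcnj14 (2.98) and Kcnj6 (2.95) were among the 18. The Kcnj14 peak also lay at an end of Grwd1, and Kcnab1 had a peak near another RefSeq start in cKO basal. Kcna6 (3.33 in cKO basal), Kcnk18 (2.86) and Kcnd3 (2.64) were among the 9. With lists of equal length the counts were 14 and 10 (14.9 and 10.6%, against 8.87 and 5.56%). At RefSeq starts they were 10 and 8 of 69, nearly even (14.5 and 11.6%, against 10.9 and 4.32%). Of the 8 shares in the 4 comparisons, 3 had an interval wholly above the value of all genes: 26.6% for WT basal without WT KCl, 21.3% for cKO KCl without WT KCl and 19.1% for cKO KCl without cKO basal. The first stayed above at equal list length (interval 10.9 to 27.4%) and at RefSeq starts (15.1 to 36.5%). The second stayed above at equal length (10.1 to 26.2%) and not at RefSeq starts (8.24 to 26.7%), and the third in neither (8.39 to 23.7% and 7.17 to 25%). At RefSeq starts the share for cKO basal without cKO KCl lay above instead (5.14 to 21.6%). Each list enters 2 comparisons, so these are not independent.

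**Figure D2:**
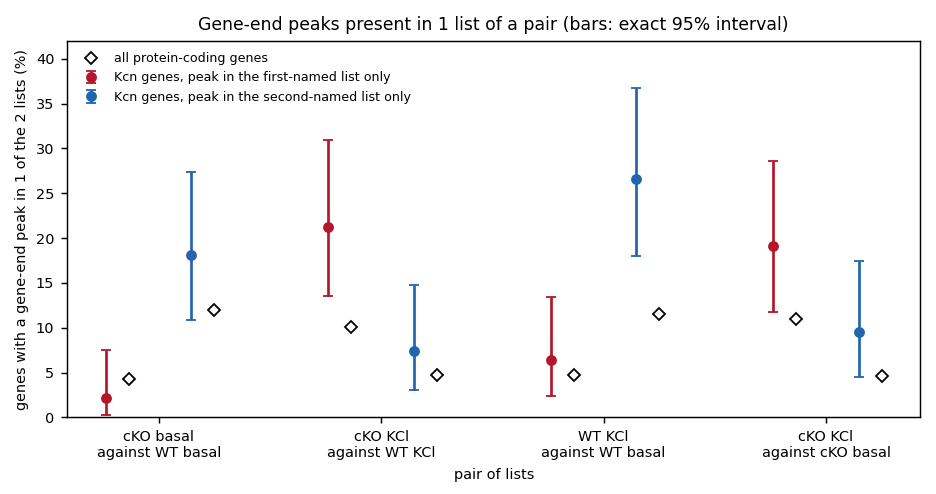
Points give the percentage of the 94 Kcn genes with a gene-end peak in one list of each pair and not in the other, red for the list named before "against" and blue for the list after it, with exact 95% binomial bars. Open diamonds give all 21887 genes; the largest Kcn value is 26.6%, for WT basal without WT KCl, against 11.5%.

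Most differing calls rested on weak peaks. Gene-end peaks of WT basal were split at the median best fold over all genes, 3.5. Of the 37 channel genes below it, 22 had no gene-end peak in WT KCl (59.5%, 42.1 to 75.2%), against 43.3% of all such genes. Of the 13 at or above it, 3 had none (23.1%, 5.04 to 53.8%), against 6.68%, and these were Kcnb2, Kcnc2 and Kcnh6, the last by position. Kcnc2 still had a peak near its other RefSeq starts in WT KCl. In cKO KCl 18 of 31 channel genes below the median of 3.72 had none in cKO basal (58.1%, 39.1 to 75.5%), against 41.1%. Among the 13 at or above it the number was 0, against 7.46% of all such genes. The exact interval of that 0 allows a share of up to 24.7%. Of the same 31, 19 had none in WT KCl (61.3%, 42.19 to 78.15%), and the 38.8% of all such genes lay below that interval. Of the 13, 1 had none in WT KCl (7.69%, 0.195 to 36.0%), against 5.98%, and it was Kcnh6, by position. More of the channel genes than of all genes lay below the split, 37 of 50 in WT basal and 31 of 44 in cKO KCl. The lower peak height of channel genes moves with these shares, and its part in the result was not tested.

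Beyond gene ends, 287 peaks of cKO KCl, 212 of cKO basal, 193 of WT KCl and 368 of WT basal lay within 50 kb of a channel gene. These are 1.12% (0.992 to 1.25%), 1.03% (0.901 to 1.18%), 0.954% (0.825 to 1.10%) and 1.08% (0.973 to 1.20%) of each list, so the number of peaks near the genes went with list length. With lists of equal length the counts were 211, 208, 193 and 215. Inside channel genes but away from their ends lay 82, 56, 53 and 121 peaks in cKO KCl, cKO basal, WT KCl and WT basal, and 60, 50, 53 and 56 lay at an end of a neighbouring gene. The share inside channel genes was 28.6, 26.4, 27.5 and 32.9%. Peaks at the ends of neighbours had the highest median fold of any position, 3.40, 3.10, 3.30 and 3.26.

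Gene by gene, the direction followed list length. In cKO basal against WT basal 14 channel genes had more peaks within 50 kb and 66 fewer (14.9% and 70.2%, against 11.9% and 57.2% of all genes). In cKO KCl against WT KCl 57 had more and 15 fewer (60.6% and 16.0%, against 42.4% and 20.8%). In WT KCl against WT basal 10 had more and 66 fewer (10.6% and 70.2%, against 11.8% and 57.2%). In cKO KCl against cKO basal 51 had more and 24 fewer (54.3% and 25.5%, against 42.6% and 20.8%). With equal list lengths the counts were 38 and 33, 39 and 25, 32 and 35, and 41 and 32, in that order, so the imbalance shrank in all 4 and the first turned round.

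Kcnh1 had the largest difference of any channel gene. It held 4 peaks in cKO KCl, 4 in cKO basal, 2 in WT KCl and 15 in WT basal, and 14 of the WT basal peaks lay inside its 321 kb. With equal list lengths, WT basal kept 6 and the 2 lists next to it in the comparisons, cKO basal and WT KCl, 4 and 2. Of its 15 WT basal peaks 12 were in no other list, at folds of 2.33 to 3.23, whereas the promoter start was called in all 4 lists, as shown above. Kcnk2, encoding a mechanosensitive leak channel, had 2, 0, 1 and 10 peaks in cKO KCl, cKO basal, WT KCl and WT basal, and at equal list length WT basal kept 5, against 0 in cKO basal and 1 in WT KCl. A region within 1 kb of 3 of its starts, from 189343522 to 189344154 on chromosome 1, had fold 2.40 in cKO KCl, 3.34 in WT KCl and 2.92 in WT basal and was absent from cKO basal.

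**Figure D3:**
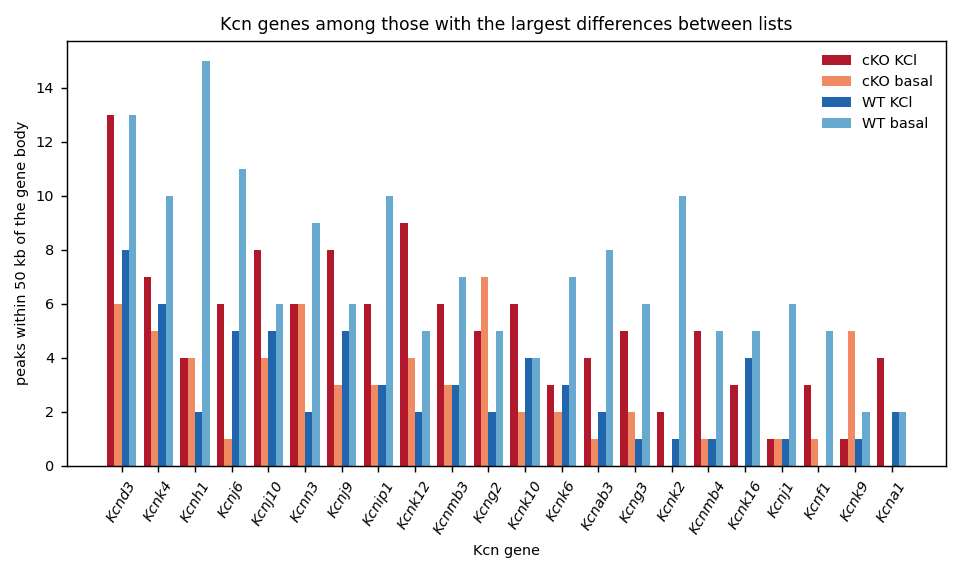
Bars give the number of peaks within 50 kb of the gene body in each list for Kcn genes among those with the largest differences in the 4 comparisons, ordered by their total. Kcnd3 has 13, 6, 8 and 13 peaks in cKO KCl, cKO basal, WT KCl and WT basal, and Kcnh1 has 15 in WT basal against 2 to 4 in the others.

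Kcnj6 had 6 peaks in cKO KCl, 1 in cKO basal, 5 in WT KCl and 11 in WT basal. At equal list length the counts were 3, 1, 5 and 4, so WT KCl was then above WT basal. An intragenic region from 94812643 to 94812981 on chromosome 16 had the strongest signal of the sites shared by the WT lists and absent from both cKO lists, at fold 3.94 in WT KCl and 4.86 in WT basal. Its promoter window shown above was open in cKO KCl (2.95) and WT basal (2.49). Kcnd3, encoding another A-type channel, had 13, 6, 8 and 13 peaks. Its strongest intragenic region, from 105585805 to 105586306 on chromosome 3, was called in all 4 lists at fold 5.42 in cKO KCl, 3.58 in cKO basal, 2.61 in WT KCl and 4.21 in WT basal. Its gene-end peak was called in the 2 basal lists, at 2.64 in both cKO basal and WT basal. Kcnh7, encoding an ERG channel, had a strong region inside the gene (62807431 to 62807846 on chromosome 2) in all 4 lists, at fold 6.52 in cKO KCl, 3.92 in cKO basal, 4.44 in WT KCl and 5.05 in WT basal, and no peak at its start. Kcnk12 was the gene with the largest excess in cKO KCl over WT KCl, with 9, 4, 2 and 5 peaks as deposited and 5, 4, 2 and 4 at equal list length. Kcnv1 had 1 peak in each list, all at its gene end.

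**Figure D4:**
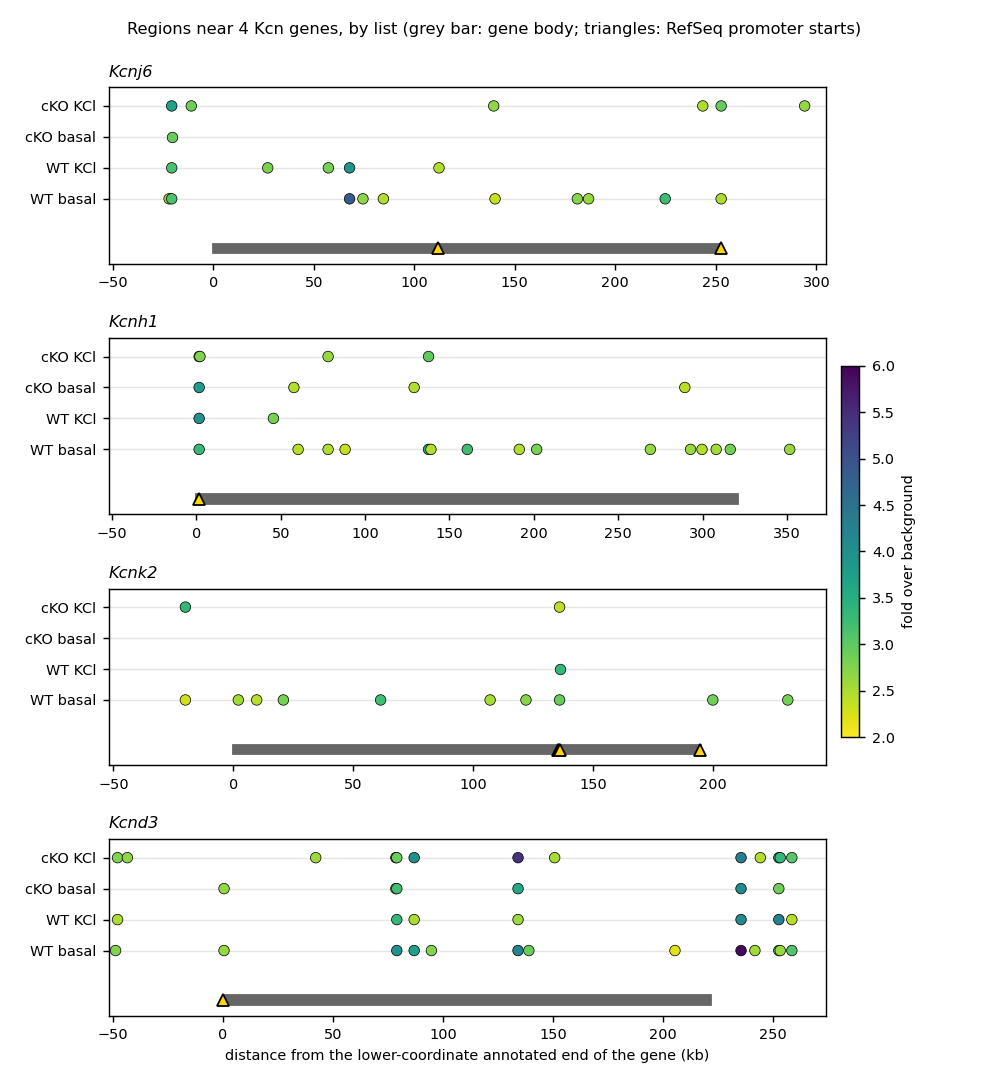
Circles are merged regions with a peak in each list (rows), placed by distance in kb from the lower-coordinate annotated end of the gene and coloured by fold over background; grey bars are gene bodies and triangles RefSeq starts. The genes are Kcnj6, Kcnh1, Kcnk2 and Kcnd3; the regions of Kcnh1 and Kcnk2 inside the body sit mostly in the WT basal row, and Kcnd3 has several regions present in all 4 rows.

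Merging the 4 lists gave 679 regions within 50 kb of channel genes. Of these 68 were present in all 4 lists (10.0%, against 11.6% of all 62023 regions), and 490 in a single list (72.2%, against 71.4%). Among the regions in all 4 lists 75.0% lay at an end of a channel gene or a neighbour, and among those in 1 list 14.5% did. Single-list regions numbered 125 in cKO KCl, 90 in cKO basal, 66 in WT KCl and 209 in WT basal. A total of 9 regions were held by both cKO lists and neither WT list, 8 by both WT lists and neither cKO list, 14 by both KCl lists and neither basal list, and 14 by both basal lists and neither KCl list. These shares were 1.33, 1.18, 2.06 and 2.06%, against 1.30, 1.86, 1.35 and 1.96% of all regions, and rest on few regions. A further 33 regions were held by cKO KCl and WT basal, the 2 longest lists, and by neither of the others (4.86%, against 3.86%).

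The strongest site in both cKO lists and neither WT list lay 35.5 kb from Kcnrg, at fold 4.06 in cKO KCl and 3.44 in cKO basal. Others were an intragenic site of Kcnd3 (105530320 to 105530660, fold 3.58 in cKO KCl and 2.41 in cKO basal) and a gene-end site of Kcna3 (3.13 and 3.14). In both WT lists and neither cKO list, after the Kcnj6 site, were sites in Kcnk10 (98511644 to 98512012 on chromosome 12, 2.82 in WT KCl and 3.79 in WT basal) and Kcnd2 (21690522 to 21690880 on chromosome 6, 3.47 and 2.91). In both KCl lists and neither basal list, a site 12.6 kb from Kcns2 had fold 3.63 in cKO KCl and 2.87 in WT KCl, and one in Kcns1 had 2.95 and 2.74. Sites in both basal lists and neither KCl list included the gene ends of Kcnk18 (2.86 in cKO basal and 3.01 in WT basal) and Kcnd3.

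Matching between lists was read as an overlap of at least 1 bp. Of the cKO basal peaks near channel genes 46.7% (39.8 to 53.7%) overlapped a WT basal peak, against 52.4% of the whole list. Of the cKO KCl peaks 36.2% (30.7 to 42.1%) overlapped a WT KCl peak (39.4% of the list) and 32.4% (27.0 to 38.2%) a cKO basal peak (39.7%). Of the WT KCl peaks 51.8% (44.5 to 59.0%) overlapped a WT basal peak (52%). The value of cKO KCl in cKO basal lay below that of the list by more than counting error, and for the other 3 the value of the list lay within the interval.

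Channels were further split by where they are best known. Of 30 channels known from cortical neurons, 14 were called at a gene end in cKO KCl, 16 in cKO basal, 12 in WT KCl and 21 in WT basal. These are 46.7, 53.3, 40 and 70%, against 45.2, 38.8, 39.8 and 46.5% of all genes in the same order. Of 15 best known from other tissues, such as kidney, heart and sperm, 3, 2, 1 and 5 were called (20, 13.3, 6.67 and 33.3%). In WT KCl against WT basal, 1 of the 30 neuronal channels was called at an end in WT KCl but not in WT basal, and 10 the reverse. For the 15 of other tissues the counts were 1 and 5, so the share of the reverse kind was equal in both sets. All genes gave 4.72% and 11.5%. Of the channels called in WT basal, 11 of 21 neuronal ones and 0 of 5 others were also called in WT KCl. Proteins that bind these channels or form related ones, 20 genes outside the Kcn symbols, had gene-end peaks in 9, 7, 10 and 11 genes in cKO KCl, cKO basal, WT KCl and WT basal. Their shares were 45, 35, 50 and 55%, against 45.2, 38.8, 39.8 and 46.5% of all genes. In WT KCl against WT basal, 1 of these 20 was called at an end in WT KCl but not in WT basal and 2 the reverse, beside the same 4.72% and 11.5% of all genes. Adam22, which anchors axonal channels, had folds of 5.88, 4.77, 5.41 and 7.58, and Dlg2, a scaffold that clusters channels, of 5.88, 4.39, 5.74 and 4.76. Other partner genes, Dpp10, Lrrc38 and Abcc8 among them, had no gene-end peak in any list.

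Markers of the labelled cell type and of others were read in the same way. Of 10 neuron markers 6, 5, 5 and 5 had an end called in cKO KCl, cKO basal, WT KCl and WT basal, among them Map2, Syn1, Tubb3 and Neurod6 in all 4. None of 4 microglia markers had one in any list. Of 4 astrocyte markers 0, 0, 0 and 3 had one, with Gfap (2.75), Slc1a3 (2.82) and Aldh1l1 (2.56) in WT basal and Aqp4 in none. Of 4 oligodendrocyte lineage markers 2, 3, 2 and 3 did, with Olig1 and Olig2 in all 4 lists, and of 3 vascular markers 1, 0, 0 and 0. The astrocyte calls in WT basal move with the larger number of channel genes called there, and their part in the result was not tested.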

How the data were processed

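ATAC-seq libraries of 4 conditions, 2 per condition, were read as the authors' peak lists. Per the submitters' processing notes, Bowtie2 and MACS2 were used on GRCm38 (mm10); versions, settings and how libraries were combined are unstated (not given in the sources used here). Columns of the deposited narrowPeak lists hold a score, a fold over local background (a ratio), the −log10 of p-values and q-values, and a summit offset. The condition of each list was read from its genotype and treatment name, and 0 columns were unmatched.

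Fragment pileup and background were recovered by solving the deposited fold and −log10 p together. A whole pileup fitted 100% of peaks within 0.001 on the −log10 p scale. Mitochondrial peaks (5 per list) were left out. Overlap meant at least 1 bp. Genes, without strand, and promoters came from RefSeq (GRCm38.p6); protein sequences were not used here. Scripts (Python 3.11.15, NumPy, pandas, SciPy) were tested on simulated peaks. Genes were named by rule: differing gene-end calls above the list's median fold, the 10 largest count differences per comparison, the 10 highest gene-end folds per list, the top gene per class, regions shared by genotype or treatment, and fixed lists, of which a few genes are counted but not reported here by name; Kcnj3, Kcne4, Kcnk5 and a few others serve as examples and were chosen after their values were seen. The members and lists were chosen with earlier results of these data known. With 1 list per condition no test compares conditions. Alternatives were other windows (10 and 100 kb), gene-end limits (0.5 and 2 kb), RefSeq starts, −log10 q of at least 2 or 3, equal list length, merged regions and 50% reciprocal overlap.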

Additional observations from a re-analysis of the deposited data

Results flagged for a closer look

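The KCl lists differed from the basal lists in opposite directions in the 2 genotypes, and none of these differences between genotypes could be tested with 1 list per condition. Peaks within 50 kb of channel genes numbered 75 more in cKO KCl than in cKO basal, and the difference WT KCl minus WT basal was -175. Channel genes with a gene-end peak numbered 9 more in cKO KCl than in cKO basal, with a difference of -19 for WT KCl minus WT basal. The lists as a whole differ in the same directions.

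A total of 8 genes had opposite differences of at least 3 peaks within 50 kb in the 2 genotypes, each time with more peaks in cKO KCl than in cKO basal and fewer in WT KCl than in WT basal. They make 8.51% of the 94 (exact interval 3.75 to 16.1%), against 4.03% of all genes. The differences, as cKO KCl minus cKO basal and WT KCl minus WT basal, were 7 and -5 for Kcnd3, 5 and -6 for Kcnj6, 5 and -3 for Kcnk12, 4 and -4 for Kcnmb4, 3 and -7 for Kcnip1, 3 and -6 for Kcnab3, 3 and -5 for Kcng3, and 3 and -4 for Kcnmb3. At equal list length only Kcnd3 (5 and -3) and Kcnmb4 (3 and -4) still met the rule, 2.13% of the 94 (0.259 to 7.48%) against 0.402% of all genes, and the pair of differences at Kcnj6 became 2 and 1. None of these differences was tested.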

How the results depend on the processing

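The differences within 50 kb were smaller between lists of equal length, a step that evens list totals by construction. With every list held to 20229 peaks, the ratio of peaks near channel genes moved to 0.967 for cKO basal over WT basal (0.576 as deposited), 1.09 for cKO KCl over WT KCl (1.49), 0.898 for WT KCl over WT basal (0.524) and 1.01 for cKO KCl over cKO basal (1.35). Of the genes whose number of peaks differed, the share with more moved to 53.5% in cKO basal against WT basal, the reverse of the 17.5% as deposited, to 60.9% in cKO KCl against WT KCl (79.2%), 47.8% in WT KCl against WT basal (13.2%) and 56.2% in cKO KCl against cKO basal (68.0%). Over all genes that differed, the shares moved to 50.4, 49.7, 51.6 and 50.8%, from 17.2, 67.1, 17.1 and 67.2%, in the same order. The split of gene-end calls kept its direction in all 4 comparisons under every gene-end limit, q limit, equal length and RefSeq starts. Windows of other sizes changed the share of each list by construction, to 0.662, 0.591, 0.559 and 0.640% at 10 kb and 1.74, 1.69, 1.61 and 1.68% at 100 kb in cKO KCl, cKO basal, WT KCl and WT basal. At 50% reciprocal overlap, 34% of cKO basal peaks near channel genes matched WT basal, 26.8% of cKO KCl peaks WT KCl, 25.1% of cKO KCl peaks cKO basal and 37.3% of WT KCl peaks WT basal, fewer than by 1 bp. Another 84 ratios and shares stayed within the counting interval of the deposited value. The 24 counts of channel genes with a gene-end peak stayed within 1.5 times of it, at 34 to 51 in cKO KCl, 28 to 42 in cKO basal, 24 to 39 in WT KCl and 39 to 56 in WT basal. No paired analysis was possible because each condition has 1 list that combines its libraries, and leaving out a replicate was not possible for the same reason. Depth limits these calls: summits near 30 fragments leave weak peaks at the threshold.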
